A study of Mus musculus with 6 samples.

Results

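The genes described here encode 9 cell-surface receptors of myeloid cells, in the LILRB and PIR families, the CD300 family, LAIR1 and SIRPA. They were chosen by gene symbol, and all 9 were found among 22672 listed genes. RNA was sequenced from BV2 cells, an immortalized mouse microglial line, in 3 libraries labelled shNumb-ctr and 3 labelled shscr-ctr. The names read as a short hairpin against Numb and a scrambled hairpin, with no other allele or agent named for either group. The labels spell out neither the suffix ctr nor how a hairpin was delivered, and do not say whether a group was 1 clone or several cultures. P-values therefore measure only the spread between these libraries, which may be technical.

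Inhibitory receptors of this kind carry motifs named ITIM in their cytoplasmic tails. When such a receptor is engaged, Src-family kinases phosphorylate the motif, and it recruits the phosphatases SHP-1 (gene Ptpn6), SHP-2 (Ptpn11) and SHIP-1 (Inpp5d), which restrain signals from activating receptors. In microglia and macrophages these receptors set thresholds for phagocytosis and cytokine release, and activating relatives signal instead through the adaptors DAP12 (Tyrobp) and the Fc receptor gamma chain (Fcer1g). The label of inhibitory receptors fits only part of the group. Lilrb4a, Pirb, Lair1, Cd300a, Cd300lf and Sirpa encode receptors with inhibitory motifs. Lilrb4b encodes gp49A, which lacks them, Lilra5 is counted with the activating LILR genes, and Cd300lb encodes a receptor that couples to DAP12.

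Lilrb4a and Lilrb4b lie side by side on the forward strand of chromosome 10 and are near copies of each other, so their coding sequences are shown first. In GENCODE mouse release M21 (GRCm38), 871 of 907 aligned coding bases were identical (96.0%), with an identical run of up to 126 bases. The first 120 coding bases of the transcripts ENSMUST00000078778.4 (Lilrb4a) and ENSMUST00000102894.5 (Lilrb4b) differed at 2 positions, written in capitals.
Lilrb4a: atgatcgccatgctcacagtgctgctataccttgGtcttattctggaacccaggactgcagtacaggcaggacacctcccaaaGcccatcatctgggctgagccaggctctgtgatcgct
Lilrb4b: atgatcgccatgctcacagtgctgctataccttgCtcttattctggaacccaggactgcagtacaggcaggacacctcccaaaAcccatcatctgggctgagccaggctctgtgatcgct

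The end of the aligned part shows where the inhibitory gene and its relative part ways. From coding base 821 on, capitals mark the substituted bases and 2 extra bases of Lilrb4b, which follow base 881 in the alignment. Their exact place within the run of c cannot be told.
Lilrb4a: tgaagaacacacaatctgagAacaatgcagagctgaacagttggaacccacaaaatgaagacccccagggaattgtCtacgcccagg
Lilrb4b: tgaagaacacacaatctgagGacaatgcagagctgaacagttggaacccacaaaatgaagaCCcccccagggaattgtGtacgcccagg
The extra bases put what follows in Lilrb4b in another reading frame, and its coding sequence ends there, at 909 bases. That of Lilrb4a runs on to 1005 bases, through a further stretch of its cytoplasmic tail that Lilrb4b does not encode.
Lilrb4a, bases 908 to 1005: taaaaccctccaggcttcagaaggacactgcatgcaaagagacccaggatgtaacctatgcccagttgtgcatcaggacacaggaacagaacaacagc

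A few facts of the whole series touch every value below. The unit of the values is not named. They were read as FPKM, that is, sequenced fragments per transcript length and per library size, and the depth itself is unknown. Numb, the gene the hairpin is named for, had 38.0, 37.2 and 40.0 FPKM in the libraries shNumb-ctr 1, 2 and 3, against 35.8, 36.7 and 36.1 FPKM in shscr-ctr, and did not pass the test (limma adjusted p = 0.137). Numb thus does not bear out the label shNumb-ctr, so directions are given for the libraries as labelled, shNumb-ctr over shscr-ctr. One library stood apart: Il1b was at 4.14 FPKM in shNumb-ctr replicate 2 and at 0.291 to 0.810 FPKM in the other 5, and 13823 genes were above 0 there, against 13513 to 13599 elsewhere. Of 13 microglial and macrophage markers 12 passed the filter, and the lowest value of Ptprc, Csf1r, Adgre1 or Cd68 in any library was 48.6 FPKM. Not all were that high: Aif1 was at 3.48 to 5.08 FPKM and Cx3cr1 at 3.86 to 5.09 FPKM over the 6 libraries. P2ry12 and Tmem119, markers of microglia in the brain, were at or below 2.02 FPKM in every library. Of the marker genes of astrocytes, neurons, oligodendrocytes, T and NK cells, B cells and fibroblasts, only Mbp passed the filter. At 0 in every library were 4 of 5 astrocyte genes, 4 of 5 neuron genes, 2 of 5 oligodendrocyte genes, 3 of 5 T and NK cell genes, 1 of 3 B cell genes and 2 of 4 fibroblast genes, and no such list summed to more than 2.37 FPKM in shNumb-ctr or 2.31 FPKM in shscr-ctr. In bulk RNA, fewer cells of a type and less RNA per cell cannot be told apart.

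The receptors with the largest changes were Lilrb4a and Lilrb4b, which rose 1.50-fold and 1.61-fold in the libraries labelled shNumb-ctr, and Pirb, Cd300lf and Cd300lb rose by less. Lair1, Cd300a and Sirpa did not pass the test, and Lilra5 was listed at 0 in every library. All 8 of the other receptors had at least 1 FPKM in each of the 6 libraries. Of these 8, 5 were called higher and 0 lower, at a limma adjusted p under 0.05 over all 10594 genes tested. Lilrb4a and Lilrb4b, near copies that may share reads, may not be independent among them. Over all tested genes 8.11% were called higher and 10.7% lower, a balance that turned with the scaling (994 higher and 880 lower after median-of-ratios rescaling). The groups did not overlap in 6 of the 8, all with the shNumb-ctr libraries higher, against 16.3% of all tested genes (23.6% did not overlap with shNumb-ctr lower, 39.9% in either direction). The median log2 fold change of the 8 was 0.24, and that of all tested genes -0.021. Without shNumb-ctr replicate 2, 6 of the 8 were called higher, and without any other single library 4 were.

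**Figure D1:**
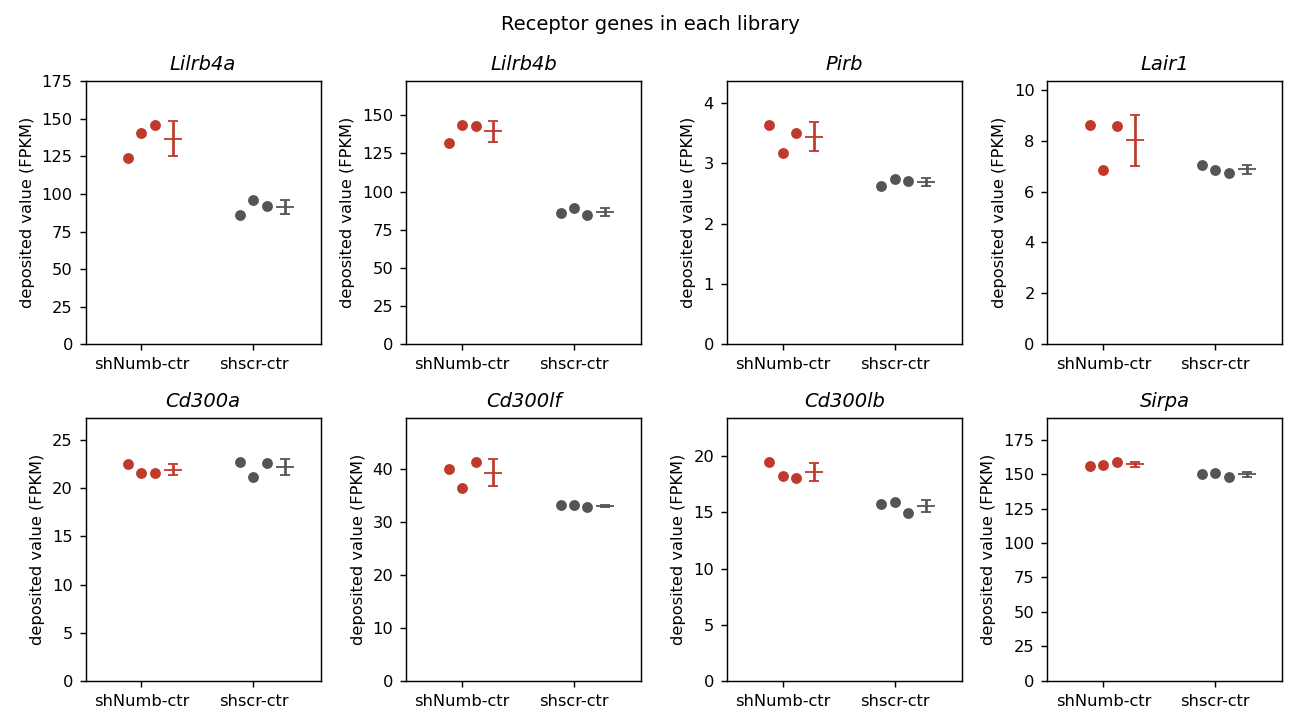
Deposited values (FPKM, axes from 0) of the 8 receptor genes above 0, with 1 point per library and the mean with its SD (n = 3) beside the points, shNumb-ctr left and shscr-ctr right. Lilrb4a and Lilrb4b stand at 124 to 146 FPKM in the shNumb-ctr libraries, above 84.5 to 95.8 FPKM in the shscr-ctr libraries, while Cd300a overlaps between the groups.

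Lilrb4a encodes gp49B, the inhibitory receptor of the pair, for which mouse ligands include an integrin. In order of replicate number, its values were 124, 141 and 146 FPKM in shNumb-ctr, against 86.3, 95.8 and 91.7 FPKM in shscr-ctr. Every shNumb-ctr library was above every shscr-ctr library. The means were 137 ± 11.5 FPKM in shNumb-ctr and 91.3 ± 4.76 FPKM in shscr-ctr (SD, n = 3 each), a 1.50-fold difference. On the log2(FPKM + 1) scale the change was 0.58 (SE 0.063, 95% interval 0.43 to 0.72, limma adjusted p = 0.00148).

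Lilrb4b, which encodes gp49A without the inhibitory tail, was at 132, 144 and 143 FPKM in shNumb-ctr, against 86.2, 89.2 and 84.5 FPKM in shscr-ctr. The groups were again separate, with shNumb-ctr replicate 1 the lowest of its group for both genes. The means were 139 ± 6.79 FPKM in shNumb-ctr and 86.6 ± 2.36 FPKM in shscr-ctr (SD, n = 3 each), 1.61-fold apart. The log2 fold change of Lilrb4b was 0.68, with a 95% interval of 0.59 to 0.77 (SE 0.040, limma adjusted p = 1.65e-04). Both genes kept their calls in each of 13 alternative analyses, where the highest limma adjusted p was 0.00898 for Lilrb4a and 0.00223 for Lilrb4b. In level they stood at the 94.9th and 94.8th percentiles of tested genes, and in log2 fold change at the 99.3rd and 99.6th.

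A further entry of the deposited files bears on both. In GENCODE M21 the gene Gm49339 spans Lilrb4b and Lilrb4a on the same strand, and its transcripts contain all 134 of the windows of 50 bases, taken every 10 bases, along the Lilrb4a transcript, but only 43 of 179 (24.0%) along that of Lilrb4b. Gm49339 was at 185.3, 185.2 and 187 FPKM in shNumb-ctr, against 119.8, 122 and 123 FPKM in shscr-ctr, with no overlap between the groups. Its fold was 1.53 and its log2 fold change 0.61 (SE 0.024, limma adjusted p = 1.89e-05). Of the windows of Lilrb4a 27.6%, and of those of Lilrb4b 22.3%, also occur in genes that do not overlap them. How the authors' counting divided reads among the overlapping entries is not given in the sources used here. The level and the change of each entry alone are therefore uncertain, and the entries cannot be taken as independent.

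Summed over Lilrb4a, Lilrb4b and Gm49339, the value was 441, 469.7 and 476 FPKM in shNumb-ctr, against 292, 307 and 299 FPKM in shscr-ctr. The sum was 1.54-fold higher, at a mean of 462 ± 18.8 FPKM in shNumb-ctr against 299 ± 7.23 FPKM in shscr-ctr (SD, n = 3 each). The share of Gm49339 in it was 40.3% ± 1.54 in shNumb-ctr and 40.6% ± 0.765 in shscr-ctr (SD, n = 3 each). Within each library, the ratio of Lilrb4a to Lilrb4b was 0.942, 0.980 and 1.02 in shNumb-ctr, against 1.00, 1.07 and 1.09 in shscr-ctr. These ratios overlapped between the groups (exact two-sided permutation p = 0.20, adjusted p = 0.30 over 6 ratios tested, where 0.10 is the smallest p that 3 against 3 libraries allow).

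**Figure D2:**
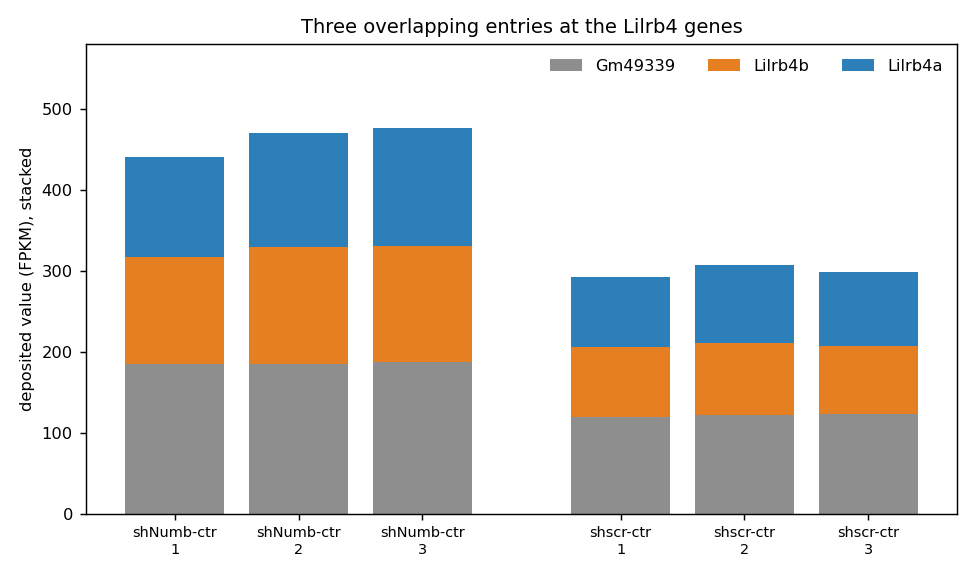
Stacked deposited values (FPKM) of the entries Gm49339, Lilrb4b and Lilrb4a in each library, shNumb-ctr left and shscr-ctr right. The stacks reach 441 to 476 FPKM in shNumb-ctr and 292 to 307 FPKM in shscr-ctr, and each entry is higher in all shNumb-ctr libraries.

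On chromosome 7, Pirb encodes an inhibitory receptor for MHC class I molecules and for the myelin protein Nogo. Pirb had 3.64, 3.18 and 3.51 FPKM in shNumb-ctr, against 2.62, 2.74 and 2.71 FPKM in shscr-ctr, so that the groups were separate at a low level. The means were 3.44 ± 0.237 FPKM in shNumb-ctr and 2.69 ± 0.0622 FPKM in shscr-ctr (SD, n = 3 each), 1.28-fold apart, and the log2 fold change was 0.27 (SE 0.064, limma adjusted p = 0.0252). The call rests on the full set of libraries: of the 6 fits that each leave a library out, only the one lacking shNumb-ctr replicate 2 kept it. Without shscr-ctr replicates 1, 2 and 3 its limma adjusted p was 0.0785, 0.0513 and 0.0641, and without shNumb-ctr replicates 1 and 3 it was 0.0807 and 0.0709. Of its windows 37.6% occur in other genes, the most in Gm14548 (listed as Pira12), and coding bases aligned to the activating relative Pira2 were 95.8% identical. The value of Pirb is therefore uncertain too. Of 10 such relatives sought by symbol, Pira4, Pira5, Pira6, Pira7 and Pira11 were not listed and have no value here. The 5 listed were low: Pira1, Pira2, Pira12, Pira13 and Lilra6 reached at most 0.422 FPKM in any library and did not pass the filter. Tested without a filter, Pira2 was called higher, at 0.259 ± 0.0359 FPKM in shNumb-ctr and 0.156 ± 0.00926 FPKM in shscr-ctr (SD, n = 3 each, log2 0.12, limma adjusted p = 0.0377), and the other 4 were not.

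Lair1, a collagen receptor with inhibitory motifs, was at 8.62, 6.85 and 8.56 FPKM in shNumb-ctr, against 7.04, 6.85 and 6.72 FPKM in shscr-ctr. Replicates 1 and 3 of shNumb-ctr were above all shscr-ctr libraries, while replicate 2 fell among them. The difference did not pass the test (fold 1.17, log2 fold change 0.19, 95% interval 0.0029 to 0.38, limma adjusted p = 0.137). Without shNumb-ctr replicate 2, the library that stood apart, the log2 fold change was 0.29 and Lair1 was called (limma adjusted p = 0.0161). Lilra5, on the same chromosome, was listed at 0 FPKM in all 6 libraries.

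The CD300 receptors bind lipids exposed on dying or activated cells, and their genes lie in a cluster on chromosome 11. Cd300lf, whose product has inhibitory motifs and binds ceramide, was at 40.0, 36.5 and 41.4 FPKM in shNumb-ctr, against 33.3, 33.2 and 32.9 FPKM in shscr-ctr. The groups were separate, and the shscr-ctr libraries lay within 1 FPKM of each other. The means were 39.3 ± 2.53 FPKM in shNumb-ctr and 33.1 ± 0.192 FPKM in shscr-ctr (SD, n = 3 each), and the fold was 1.19 (log2 0.24, SE 0.047, limma adjusted p = 0.0126). Rab37 covers Cd300lf on the opposite strand in GENCODE M21. At 0.756 to 1.28 FPKM over the 6 libraries, it was far below Cd300lf.

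Cd300lb, the DAP12-coupled member, was at 19.5, 18.2 and 18.1 FPKM in shNumb-ctr, against 15.8, 15.9 and 14.9 FPKM in shscr-ctr. Again no shNumb-ctr library overlapped a shscr-ctr library. Its means were 18.6 ± 0.788 FPKM in shNumb-ctr and 15.5 ± 0.527 FPKM in shscr-ctr (SD, n = 3 each), a 1.20-fold difference (log2 0.25, SE 0.045, limma adjusted p = 0.0101). The calls for Cd300lf and Cd300lb held in each of 13 alternatives (highest limma adjusted p = 0.0451 and 0.0359). None of the windows of Cd300lb and 6.5% of those of Cd300lf occur in other genes.

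Cd300a, the inhibitory receptor for phosphatidylserine and phosphatidylethanolamine, was at 22.6, 21.6 and 21.6 FPKM in shNumb-ctr, against 22.8, 21.2 and 22.6 FPKM in shscr-ctr. The groups overlapped throughout. Its log2 fold change was -0.017, with a 95% interval of -0.11 to 0.076 (limma adjusted p = 0.788). That interval lies below the log2 fold changes of its neighbours Cd300lf and Cd300lb. The ratio of Cd300lf to Cd300a within a library was 1.77, 1.69 and 1.92 in shNumb-ctr, against 1.46, 1.56 and 1.45 in shscr-ctr. For Cd300lb to Cd300a the ratio was 0.865, 0.845 and 0.836 in shNumb-ctr, against 0.692, 0.749 and 0.660 in shscr-ctr. Both ratios were higher in every shNumb-ctr library (exact two-sided permutation p = 0.10, the smallest this design allows, adjusted p = 0.20 over 6 ratios). The ratios were chosen after the values were seen, so they only describe the difference already given.

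The further CD300 genes were mostly low. Of 9 listed, 4 passed the filter, 2 were called higher and 0 lower, and the median log2 fold change of the 4 was 0.16. Over all tested genes 8.11% were called higher and 10.7% lower. Cd300c2 was at 9.48 ± 0.199 FPKM in shNumb-ctr and 8.23 ± 0.374 FPKM in shscr-ctr, and Cd300ld3 at 1.71 ± 0.103 FPKM in shNumb-ctr and 1.11 ± 0.253 FPKM in shscr-ctr (SD, n = 3 each, log2 0.18 and 0.36, limma adjusted p = 0.0342 and 0.0388). Cd300c2 kept its call only without shscr-ctr replicate 3, and Cd300ld3 only without shscr-ctr replicate 1, when each of the 6 libraries was left out in turn. In those fits 0 or 1 of the further CD300 genes were called, with limma adjusted p up to 0.109 for Cd300c2 and 0.0950 for Cd300ld3. Quantile normalization also ended the call for Cd300ld3 (limma adjusted p = 0.0644), and testing without a filter or with the replicate block ended both. In all, Cd300c2 lost its call in 7 of 13 alternatives and Cd300ld3 in 8 of 12. Cd300ld and Cd300lg did not pass (log2 0.13 and 0.14, limma adjusted p = 0.0978 and 0.197).

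Sirpa encodes the receptor for CD47, the signal by which cells are spared from phagocytosis. It had the highest level of the receptors, at 156, 157 and 159 FPKM in shNumb-ctr, against 150.1, 151 and 148 FPKM in shscr-ctr. All shNumb-ctr libraries were above all shscr-ctr libraries, but only by 1.05-fold (157 ± 1.75 FPKM in shNumb-ctr against 149.7 ± 1.64 FPKM in shscr-ctr, SD, n = 3 each). Sirpa missed the threshold over all genes, at a log2 fold change of 0.069 (95% interval 0.013 to 0.13, limma adjusted p = 0.0842). Of the further SIRP genes, Sirpb1c passed the filter (1.73 ± 0.406 FPKM in shNumb-ctr against 1.56 ± 0.220 FPKM in shscr-ctr, SD, n = 3 each, limma adjusted p = 0.660). Sirpb1a and Sirpb1b were below the filter, at no more than 0.466 and 0.903 FPKM.

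Per length, the order of levels in shNumb-ctr was Sirpa, Lilrb4b, Lilrb4a, Cd300lf, Cd300a, Cd300lb, Lair1, Pirb and Lilra5. In shscr-ctr it was the same but for Lilrb4a before Lilrb4b, whose ranges overlapped in both groups, while all other neighbours in the order had separate ranges. Lilrb4a and Lilrb4b made up 50.5%, 53.9% and 53.4% of the summed FPKM of the 9 genes in shNumb-ctr, against 42.7%, 44.5% and 43.6% in shscr-ctr. The other receptors summed to 248 ± 4.87 FPKM in shNumb-ctr and 230.1 ± 2.03 FPKM in shscr-ctr (SD, n = 3 each), 1.08-fold apart.

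**Figure D3:**
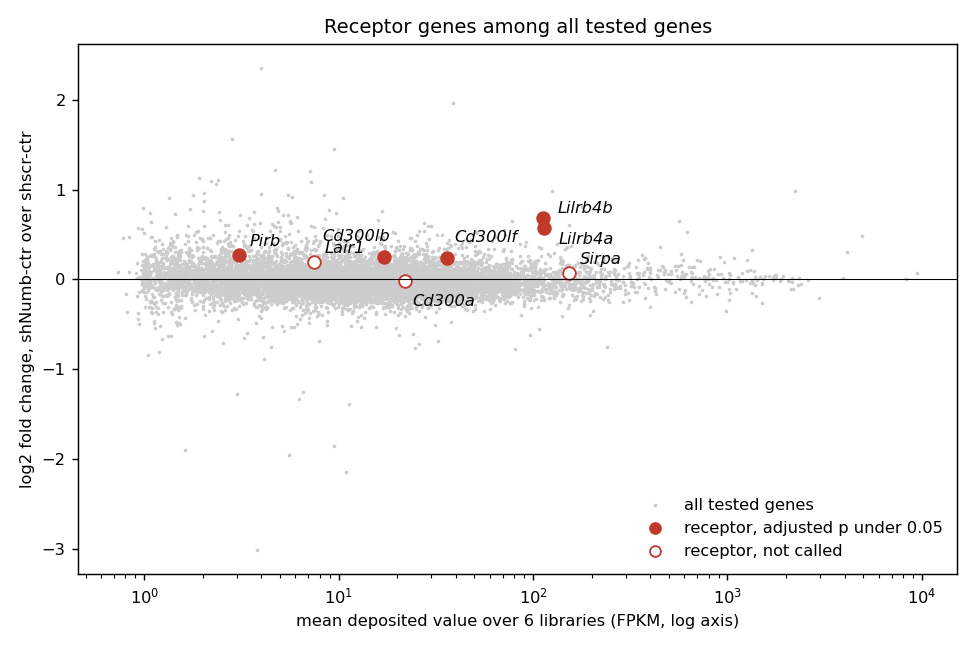
Mean deposited value over the 6 libraries (FPKM, log axis) against the log2 fold change of shNumb-ctr over shscr-ctr, for all 10594 tested genes (grey) and the 8 tested receptors (red, filled where called). Lilrb4a and Lilrb4b lie at log2 fold changes of 0.58 and 0.68, among genes of high level.

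Genes of the ligands, the signalling partners and other inhibitory receptors were read beside the receptors. Among 15 genes for ligands, 7 passed the filter, with a median log2 fold change of 0.20. Of the 7, 4 were called higher and 0 lower, against 8.11% and 10.7% of all tested genes. Those of the MHC class I molecules bound by Pirb were among them. B2m, the shared light chain, was at 992 ± 26.4 FPKM in shNumb-ctr and 835 ± 3.15 FPKM in shscr-ctr (SD, n = 3 each, log2 0.25, limma adjusted p = 0.00146). The heavy chain genes H2-K1 and H2-D1 rose 1.18-fold and 1.17-fold (limma adjusted p = 0.00274 and 0.00244). Rtn4, which encodes Nogo, rose 1.14-fold (limma adjusted p = 0.0186), a call lost without shscr-ctr replicate 3 or shNumb-ctr replicate 1 (0.0605 and 0.0509). Cd47, the ligand of Sirpa, was at 24.3, 21.9 and 22.6 FPKM in shNumb-ctr, against 18.7, 21.9 and 19.1 FPKM in shscr-ctr, a log2 fold change of 0.20 that missed the threshold (limma adjusted p = 0.0688). Without shscr-ctr replicate 2 Cd47 was called (log2 0.26, limma adjusted p = 0.0210). Apoe, for which binding to LILRB4 is known in human, was at 1413 ± 103 FPKM in shNumb-ctr and 1324 ± 45.2 FPKM in shscr-ctr (SD, n = 3 each, limma adjusted p = 0.253). Apoe was called without shNumb-ctr replicate 2 (log2 0.15, limma adjusted p = 0.0418). Angptl2 went the other way, lower in every shNumb-ctr library at 0.957 times its shscr-ctr mean, but did not pass (log2 -0.064, limma adjusted p = 0.229). The collagen genes Col1a1, Col1a2, Col3a1, Col4a1 and Col4a2 reached at most 0.211 FPKM in any library and were not tested.

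Among 10 genes for inhibitory effectors, all of which passed the filter, 0 were called higher and 1 lower, and the median log2 fold change was -0.067. Over all tested genes 8.11% were called higher and 10.7% lower, so 1 lower of 10 is near the share of all genes. Ptpn6, which encodes the phosphatase SHP-1, was at 138, 128 and 133 FPKM in shNumb-ctr, against 143, 145 and 145 FPKM in shscr-ctr. It was lower in every shNumb-ctr library, at 0.919 times the shscr-ctr mean (log2 -0.12, SE 0.032, limma adjusted p = 0.0342). Of the fits lacking 1 library, only that lacking shNumb-ctr replicate 1 kept the call. It was lost in the other 5, at limma adjusted p of 0.0724 to 0.0923, and after median-of-ratios rescaling of the libraries (0.0698). In all, Ptpn6 lost its call in 9 of 13 alternatives. Without shNumb-ctr replicate 2 the counts for this list turned, with 1 effector gene called higher and 0 lower. Inpp5d, for SHIP-1, was at 31.7 ± 1.73 FPKM in shNumb-ctr and 33.7 ± 2.28 FPKM in shscr-ctr (SD, n = 3 each, limma adjusted p = 0.324). The ratio of Lilrb4a to Ptpn6 was 0.901, 1.10 and 1.10 in shNumb-ctr, against 0.605, 0.659 and 0.632 in shscr-ctr (exact two-sided permutation p = 0.10, the smallest this design allows, adjusted p = 0.20 over 6 ratios). Lilrb4a and Ptpn6 had already been seen to separate the groups in opposite directions, so this ratio only restates that. The value of Lilrb4a alone is also uncertain, as given above for Gm49339.

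Among 15 genes for activating adaptors and kinases, 6 were called higher and 1 lower, against 8.11% and 10.7% of all tested genes. The median log2 fold change of the list was 0.029. The adaptor genes rose: Tyrobp (DAP12) was at 371 ± 19.2 FPKM in shNumb-ctr and 320.4 ± 8.85 FPKM in shscr-ctr, and Fcer1g at 331 ± 9.38 FPKM in shNumb-ctr and 292 ± 4.75 FPKM in shscr-ctr (SD, n = 3 each, log2 0.21 and 0.18, limma adjusted p = 0.0122 and 0.00638). Sh3bp2, an adaptor that binds Syk, rose 1.19-fold (limma adjusted p = 0.00979). The ratio of Cd300lb to its adaptor Tyrobp was 0.0512, 0.0522 and 0.0472 in shNumb-ctr, against 0.0508, 0.0486 and 0.0461 in shscr-ctr, with overlapping groups (exact two-sided permutation p = 0.50, adjusted p = 0.50 over 6 ratios). The kinase genes Syk and Lyn did not pass (log2 -0.037 and -0.040, limma adjusted p = 0.602 and 0.463). Btk, a kinase downstream of Syk, was at 0.913 times its shscr-ctr mean (limma adjusted p = 0.0450), a lower call kept only without shNumb-ctr replicate 2 when libraries were left out in turn (limma adjusted p up to 0.116) and lost after median-of-ratios rescaling (0.0633). In those fits 3 genes of this list were called higher without replicate 1 or 3 of shscr-ctr or replicate 1 of shNumb-ctr, and 4 or 5 without each of the others.

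Of 16 other receptors with an inhibitory motif, 8 passed the filter, with a median log2 fold change of 0.24. Of the 8, 5 were called higher and 0 lower, against 8.11% and 10.7% of all tested genes. Cd200r1, the receptor for CD200, was at 12.2 ± 0.725 FPKM in shNumb-ctr and 9.21 ± 0.586 FPKM in shscr-ctr (SD, n = 3 each, log2 0.37, limma adjusted p = 0.00626). Fcgr2b, the inhibitory Fc receptor, rose 1.22-fold and Milr1, known from mast cells, 1.15-fold (limma adjusted p = 0.00957 and 0.00931). Cd5 and Pdcd1 completed the count, at 1.24-fold and 1.67-fold (limma adjusted p = 0.0130 and 0.0165). The call for Pdcd1 was lost without shscr-ctr replicate 1 (0.0566), without shNumb-ctr replicate 1 (0.0549) and without shNumb-ctr replicate 3 (0.0573). Below the filter, and so without a call, Siglece and Btla were lower in every shNumb-ctr library. Siglece was at 0.421 ± 0.101 FPKM in shNumb-ctr and 0.686 ± 0.138 FPKM in shscr-ctr (SD, n = 3 each). Btla was at 0 FPKM in shNumb-ctr and 0.0350 to 0.0567 FPKM in shscr-ctr. The other receptors of this list below the filter overlapped between the groups. Of the microglial and macrophage markers, 6 of 12 tested were called higher, and 2, Csf1r and Spi1, lower, against 8.11% and 10.7% of all tested genes. Tyrobp, 1 of the 6, was already counted among the adaptors. The higher count was 4 to 6 over the alternatives. Cd68 lost its higher call in 9 of 13 and Cx3cr1 in 3 of 12. The lower count was 1 after median-of-ratios rescaling or quantile normalization. It was 0 without shscr-ctr replicate 1, 2 without shNumb-ctr replicate 1, and 1 without each of the other 4 libraries, and Csf1r lost its call in 10 of 13 alternatives. Their sum over 13 genes was 1512 to 1644 FPKM in shNumb-ctr and 1419 to 1457 FPKM in shscr-ctr, and their part in the receptor changes was not tested.

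**Figure D4:**
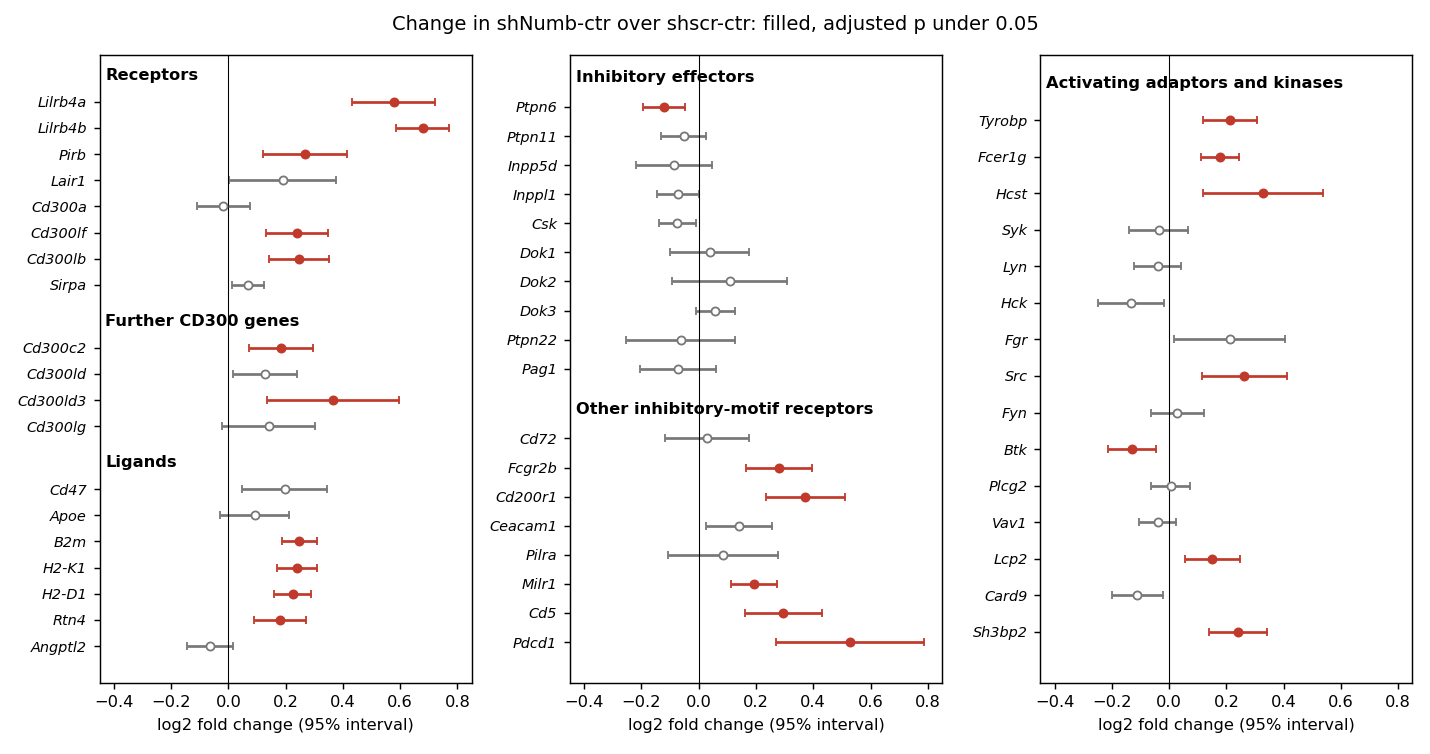
Log2 fold changes of shNumb-ctr over shscr-ctr with 95% intervals (limma, n = 3 each) for the receptors, the further CD300 genes, ligands, effectors, adaptors and kinases, and other receptors with an inhibitory motif, filled where the adjusted p is under 0.05. On this log2(FPKM + 1) scale Lilrb4a and Lilrb4b, at 0.58 and 0.68, have the largest values of the genes drawn. With a pseudocount of 0.1 that order changes: Pdcd1 is at 0.71 and Cd300ld3 at 0.60, against 0.68 for Lilrb4b and 0.58 for Lilrb4a. Of the effectors only Ptpn6 is filled, at -0.12.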

How the data were processed

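RNA of 6 BV2 libraries, 3 per group, was extracted with TRIzol, per the labels' protocols, and read out by a sequencing company. The authors deposited 1 value per gene and library. The header does not name its unit; from the values it was read as FPKM, and TPM would be possible only after removal of part of each table, since each deposited library summed to 451077 to 455561. CASAVA and DESeq2 are named, without version or role, in the submitters' processing notes. Not given in the sources used here: aligner, genome build, annotation and strand setting. Depth is therefore unknown, and no counting intervals are given.

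Genes with at least 1 FPKM in at least 3 libraries were tested with limma 3.58.1 (trended prior variance, R 4.3.3) on log2(FPKM + 1), which understates changes of low genes. P-values were adjusted by Benjamini-Hochberg over all 10594 tested genes and called at 0.05. Intervals are 95%. On simulated data the fit recovered 53.7%, 87.9% and 97.0% of log2 changes of 0.3, 0.6 and 1, with 5 false among 163 calls. The simulation changed 200 of 10594 genes, with independent noise, while 1989 genes were called in the data. Its rates may therefore differ from those in the data. Changes below 0.3 were not simulated, so a gene with such a change that was not called may still differ. Ratios within a library were compared by an exact permutation test. Other computations used Python 3.11.15, pandas 2.3.3, numpy 2.4.6 and Biopython 1.88. Sequences, shared windows and overlaps came from GENCODE M21.

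No 2 libraries held identical values. The members, gene lists and tests were chosen with earlier results of these data known. Named from each list were up to 3 called genes per direction with the smallest adjusted p, and up to 2 tested genes of highest level where none was called, besides the receptors, Numb and their main signalling partners. Gm49339, Rab37, Il1b, the other genes described by level or call beyond that rule (such as Rtn4, Apoe, Cd300ld, Cd300lg, Cd5 and Pdcd1) and the ratios were chosen after their values were seen. Alternatives were 2 scalings, another pseudocount, 2 filters, a constant prior variance, a replicate block and leaving out each library.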

Additional observations from a re-analysis of the deposited data

How the results depend on the processing

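Lilrb4a, Lilrb4b, Cd300lf and Cd300lb kept their direction and call in all 13 alternatives, with log2 fold changes of 0.53 to 0.65, 0.66 to 0.72, 0.20 to 0.29 and 0.21 to 0.27. The count of receptors called higher was 4 to 6 over all alternatives, with 0 called lower in each. Pirb was lost in 6 of 12 and was not tested with the filter of at least 5 FPKM. Sirpa was called in none of 13. The labels' replicate numbers share only a number: deviations of same-numbered libraries correlated at 0.0067, 0.012 and 0.047, and replicates 1 and 2 of shNumb-ctr each correlated best with another number. With the replicate block, 520 genes were called higher and 559 lower, against 859 and 1130 without it, and Pirb had a limma adjusted p of 0.0672. Leaving out 1 library gave 499 to 671 genes called higher and 465 to 869 lower, and the other alternatives 763 to 994 and 872 to 1167. Of the called genes 43.2% were higher, against 53.04% after median-of-ratios rescaling (994 higher, 880 lower) and 50.8% after quantile normalization (946 higher, 918 lower). The leave-one-out fits hold fewer samples; for the block, the cause was not tested. Cd300a changed sign, at log2 fold changes of 0.000186 (median-of-ratios rescaling), 0.000888 (quantile normalization) and 0.000436 (without shscr-ctr replicate 1), and ranged down to -0.048 when other libraries were left out. Sirpb1c changed sign without shNumb-ctr replicate 2, at -0.014. With unknown depth, the counting error of low genes such as Pirb and Cd300ld3 cannot be given.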

Other observations

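Few genes matched Lilrb4a in both level and change. Of 10594 tested genes, 542 had a mean level of at least that of Lilrb4a and 70 a log2 fold change of at least its own, Lilrb4a itself counted in both. The 6 with both were Lilrb4a, Gm49339 (which overlaps it and is not independent of it), Spp1, Ccl3, Ccl4 and Plau, and Lilrb4b fell just short in mean level. Spp1, which encodes osteopontin, was at 2963 FPKM in shNumb-ctr and 1502 FPKM in shscr-ctr, 1.97-fold higher (limma adjusted p = 3.98e-06). The chemokine genes Ccl3 and Ccl4 were 1.57-fold and 1.75-fold higher, at 686 and 227 FPKM in shNumb-ctr, against 437 and 129.6 FPKM in shscr-ctr (limma adjusted p = 5.09e-04 and 1.14e-04). Plau, which encodes urokinase, was at 166 FPKM in shNumb-ctr and 83.4 FPKM in shscr-ctr, 2.00-fold higher (limma adjusted p = 1.45e-04). These values are means of 3 libraries a group, and the genes were picked by their values, so they are a description. Nothing is drawn from them about shared function or control.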
